A study of Mus musculus with 25 samples.

Results

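The T cell genes described here are Cd3d, Cd3e, Cd3g, Cd4, Cd8a, Cd8b1, Foxp3, Tbx21, Cd5 and Lck. They are 10 of the 24984 genes in the deposited count table, were taken by symbol, and all 10 were present. Their levels were read in the stroma sorted out of liver and peritoneal tumours of the same 4 mice, and the sorted tumour cells of the same tumours served as a check on RNA carried between fractions. All hosts were athymic nude mice (Crl:NU(NCr)-Foxn1nu in the study's methods), and the tumours grew from BMEL cells, a bipotential line from embryonic mouse liver (C57BL/6 x C3H), that carried HRasG12V with a Venus reporter and were injected into the liver. Stromal cells were the GFP-negative and tumour cells the GFP-positive fraction of a dissociated liver xenograft or peritoneum metastasis, with 4 libraries in each of these 4 groups. Cultured BMEL cells with an empty vector, RasLOW cells and RasHIGH cells (3 libraries each), which hold no host cells, were used only as a background. The age and sex of the mice, and which Ras population was injected into these 4 mice, were not given in the sources used here.

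T cells recognise antigen through a receptor whose signal is carried into the cell by the CD3 chains (Cd3d, Cd3e, Cd3g) and the zeta chain Cd247. The kinase Lck, held by the coreceptors CD4 or CD8, phosphorylates these chains, and Zap70 and Lat pass the signal on. T cells mature in the thymus, and a mouse without functional Foxn1 has no functional thymus, so that it holds few T cells. Most of the genes are not exclusive to T cells: Lck, Tbx21, Cd247 and Zap70 are used by natural killer (NK) cells, Cd8a and Cd4 by subsets of dendritic cells, and Cd5 by some B cells, whereas surface assembly of the 3 CD3 chains is a property of T cells.

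In the stroma the T cell genes were present at low levels and did not move as one group between the sites. Cd3e was higher in peritoneal than in liver stroma, and Lck was higher in liver than in peritoneal stroma. Of the remaining genes, 6 did not pass the test and 2, Cd5 and Foxp3, had too few counts for the fit. In tumour cells Cd3g, Cd4, Cd8a, Cd8b1, Tbx21 and Lck were at 0.344% to 3.90% of their stromal level, while Cd3e kept counts in every tumour cell library. Lck and Cd8a in tumour cells did not exceed their highest level in cultured cells, which hold no host cells.

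The 16 sorted libraries held between 23129017 and 51241336 counts. Levels are given as CPM, counts per 1000000 counts of the library. At this depth 3 counts, taken as the smallest level that could be read, corresponded to 0.0585 to 0.130 CPM, which covers counting error only. Stromal libraries carried the pan-leukocyte gene Ptprc at 903 to 951 CPM in liver and 442 to 550 CPM in peritoneum, so that Ptprc took a larger share of the RNA in liver stroma. They also carried the epithelial gene Krt8 at 447 to 597 CPM in liver and 247 to 414 CPM in peritoneum, against 3146 to 5458 CPM in tumour cells. Among tumour cell libraries, that of the peritoneal tumour of mouse 1 held Ptprc at 12.5 CPM and the other 7 at 1.07 to 2.67 CPM. In bulk libraries fewer cells of a type and less RNA per cell cannot be told apart.

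**Figure D1:**
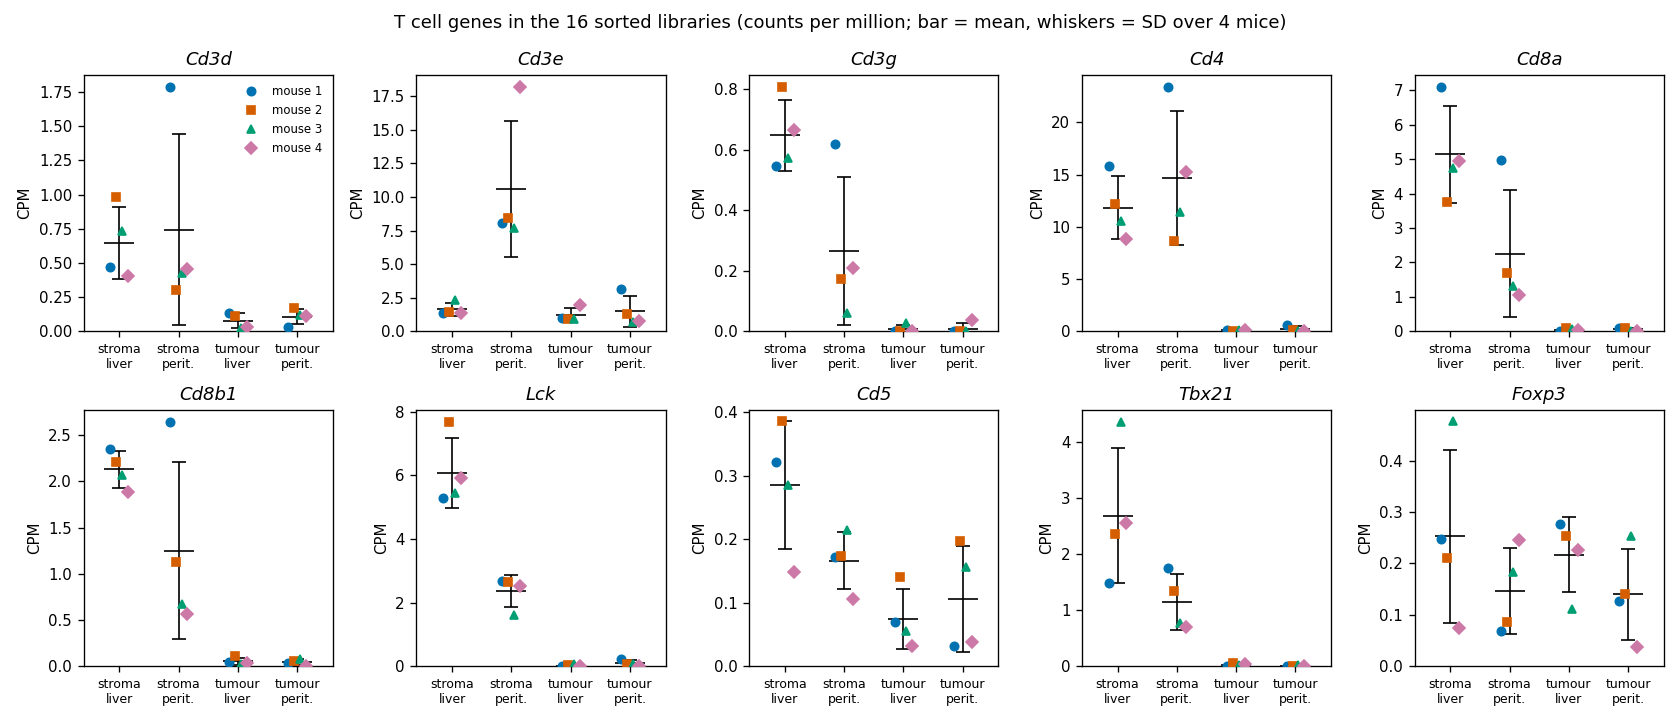
Levels of the 10 T cell genes in the 16 sorted libraries. The y axis of each panel gives CPM on a linear scale from 0, the x axis the 4 groups, each point is 1 mouse, the bar is the mean and the whiskers the SD over 4 mice. Cd3e stands highest in the peritoneal stroma (7.67 to 18.2 CPM), Lck in the liver stroma (5.28 to 7.69 CPM), and mouse 1 lies above the other peritoneal stromal libraries for Cd3d, Cd3g, Cd4, Cd8a, Cd8b1 and Tbx21.

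The CD3 chains were examined first. Cd3g, Cd3d and Cd3e lie next to each other on chromosome 9 of mm9, at 44777655-44788514 (minus strand), 44789876-44795135 (plus strand) and 44806826-44817673 (minus strand). Cd3g and Cd3d start 1362 bases apart and are read in opposite directions, and no exon of another annotated gene overlaps any of the 3. Their RefSeq promoter windows of 300 bases around the gene start on GRCm38.p6 are shown because neighbouring genes of one complex differed in the stroma. Capitals mark the E-box hexamer CACCTG, searched on both strands (CAGGTG on the other).
Cd3g promoter, chr9:44980382-44980681, minus strand: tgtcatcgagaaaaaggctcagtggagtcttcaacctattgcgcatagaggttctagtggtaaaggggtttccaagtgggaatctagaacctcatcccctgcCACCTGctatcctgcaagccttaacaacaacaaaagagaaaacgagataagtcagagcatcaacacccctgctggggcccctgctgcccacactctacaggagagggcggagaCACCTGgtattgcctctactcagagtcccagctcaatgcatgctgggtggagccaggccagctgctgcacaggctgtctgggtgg
Cd3d promoter, chr9:44981536-44981835, plus strand: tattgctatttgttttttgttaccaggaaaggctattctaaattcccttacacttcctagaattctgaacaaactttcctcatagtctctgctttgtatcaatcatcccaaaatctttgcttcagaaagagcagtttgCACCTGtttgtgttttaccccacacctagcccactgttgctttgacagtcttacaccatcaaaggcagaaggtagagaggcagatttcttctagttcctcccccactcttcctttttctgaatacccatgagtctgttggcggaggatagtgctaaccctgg
Cd3e promoter, chr9:45009562-45009861, minus strand: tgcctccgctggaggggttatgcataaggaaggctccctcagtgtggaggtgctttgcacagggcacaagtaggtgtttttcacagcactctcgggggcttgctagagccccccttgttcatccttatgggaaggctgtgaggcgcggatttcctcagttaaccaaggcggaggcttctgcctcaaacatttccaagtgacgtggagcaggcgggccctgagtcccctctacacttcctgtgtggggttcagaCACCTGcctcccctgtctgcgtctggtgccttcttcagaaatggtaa
This hexamer occurred in 20.2% of 32851 promoter windows of the same length, 2 times in the Cd3g window and 1 time each in those of Cd3d and Cd3e. A second hexamer, TGTGGT, a core bound by Runx proteins, was likewise searched on both strands. It occurred in 16.8% of the windows and in 0 of these 3. Of the 10 T cell genes 8 had a promoter entry, the E-box hexamer was found for 6 of them and the Runx core for Lck only. A match describes the letters of a window.

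Cd3e, the chain that pairs with both of the others in the receptor complex, was at 1.34, 1.44, 2.35 and 1.40 CPM in the liver stroma of mice 1 to 4. In their peritoneal stroma it was at 8.04, 8.47, 7.67 and 18.2 CPM. The groups did not overlap, and every mouse had the higher value in the peritoneum, by 3.26 to 13.0-fold. On the log2 scale the liver was lower, with a fold change (liver minus peritoneum) of -2.81 and a standard error of 0.34 (edgeR quasi-likelihood test over 14755 genes, adjusted p = 0.000219). In that comparison 33.4% of all genes tested were called at an adjusted p under 0.05, 14.9% higher in liver and 18.5% higher in peritoneum, and 2 of the 8 T cell genes that passed the filter on low counts were called, 1 in each direction, a share below that background. The groups did not overlap for the same 2 genes, against 38.3% of all genes tested. At the threshold used in the study, an unadjusted p under 0.05 with an absolute log2 change above 1, 4 of 8 T cell genes passed, against 14.3% of all genes. The 8 T cell genes had a median log2 fold change of 0.87 against 0.02 over all genes. The 5 fibroblast genes, summed, were at 2845 to 5950 CPM in liver and 39646 to 57275 CPM in peritoneal stroma, in the same direction as Cd3e, and their part in its level was not tested.

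Cd3g, in contrast, was at 0.545, 0.807, 0.573 and 0.665 CPM in liver stroma and at 0.618, 0.173, 0.0611 and 0.210 CPM in peritoneal stroma. It was lower in the peritoneum in mice 2 to 4, and in mouse 1 both sites had nearly the same level. The fold change of 1.16 did not pass (standard error 0.55, adjusted p = 0.135). Cd3d was at 0.471, 0.983, 0.732 and 0.407 CPM in liver and at 1.79, 0.303, 0.428 and 0.456 CPM in peritoneal stroma. In peritoneal stroma mouse 1 stood above the other 3 mice, with 52 counts against 7 to 14, and the ranges of the 2 sites overlapped. The fold change was -0.33 (standard error 0.57, adjusted p = 0.701).

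The 3 chains thus differed in proportion between the sites. In liver stroma Cd3e had 1.78 to 4.11 times the counts of Cd3g, and in peritoneal stroma 13.0 to 125.5 times. The peritoneal ratios rested on 2 to 18 Cd3g counts, and the highest, in mouse 3, on 2 counts, under the smallest level that could be read. All 3 chains had more than 3 counts in 4 of 4 liver and 3 of 4 peritoneal stromal libraries, and in 0 of 8 tumour cell and 0 of 9 cultured cell libraries. Per kilobase of exon (RPKM, from lengths of the mm9 annotation) the mean level of Cd3e was 1.14 ± 0.336 in liver and 7.38 ± 3.54 in peritoneal stroma (SD, n = 4). Cd3g had 0.605 ± 0.110 and 0.248 ± 0.228, and Cd3d 0.490 ± 0.199 and 0.562 ± 0.528 on the same scale.

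The kinase Lck (chromosome 4, 129225588-129250885, minus strand, mm9) was at 5.28, 7.69, 5.44 and 5.92 CPM in liver stroma. In peritoneal stroma it was at 2.68, 2.64, 1.62 and 2.53 CPM. No library of one site reached the range of the other, and the liver level was 1.97 to 3.36 times the peritoneal one within each of the 4 mice. This gave a log2 difference of 1.25 with a standard error of 0.20 (edgeR, adjusted p = 0.00125). Over the same mice the liver level of Ptprc was 1.68 to 2.04 times the peritoneal one. With the libraries scaled to 10 pan-leukocyte genes in place of all genes, the median change of all genes moved by -0.53 and the fold change of Lck became 0.73 (adjusted p = 0.0146, edgeR).

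**Figure D2:**
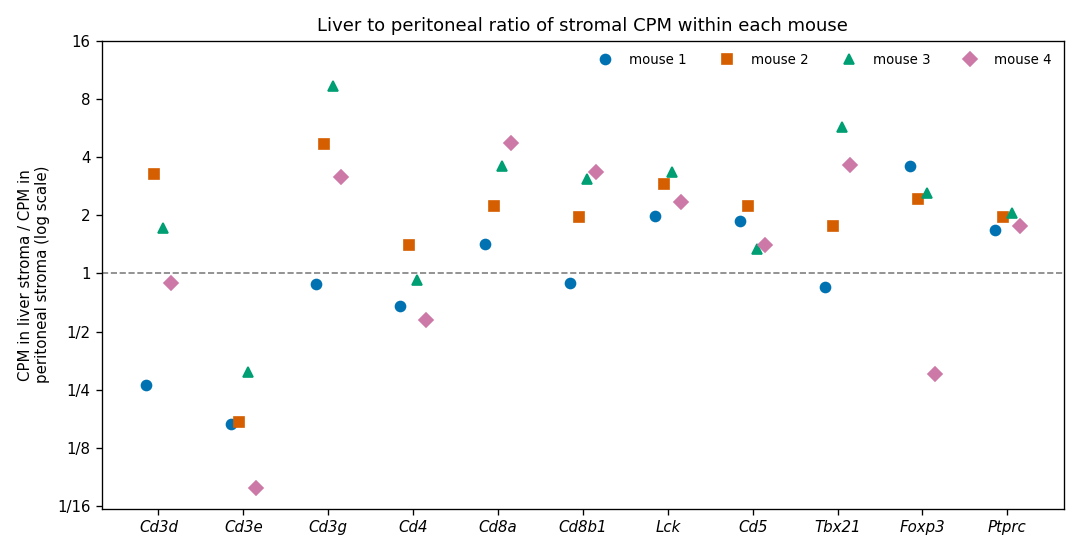
Ratio of the CPM in liver stroma to that in peritoneal stroma of the same mouse, on a log2-spaced axis, for the 10 T cell genes and Ptprc. The x axis lists the genes, each point is 1 mouse, and the dashed line marks equal levels. Cd3e lies below the line in 4 of 4 mice, and Lck, Cd8a, Cd5 and Ptprc lie above it in 4 of 4.

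Of the coreceptors, Cd4 was the most abundant T cell gene of the liver stroma per kilobase (2.94 ± 0.737 RPKM, SD, n = 4) and the second in the peritoneal stroma (3.64 ± 1.58 RPKM). It lies on chromosome 6 at 124814710-124838239 (minus strand, mm9). Its levels were 15.8, 12.2, 10.6 and 8.80 CPM in liver and 23.4, 8.65, 11.5 and 15.3 CPM in peritoneal stroma. These ranges overlapped, and 3 of 4 mice were higher in the peritoneum. The fold change was -0.42 (standard error 0.29, adjusted p = 0.297, edgeR), and on the leukocyte scale -0.93 (adjusted p = 0.0107), so that the call of Cd4 depended on the scale.

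The CD8 chains Cd8a and Cd8b1, which form the coreceptor of cytotoxic T cells, lie on the plus strand of chromosome 6 at 71323421-71329165 and 71272830-71287471 (mm9). Cd8a was at 7.09, 3.75, 4.74 and 4.95 CPM in liver stroma and at 4.98, 1.69, 1.31 and 1.05 CPM in peritoneal stroma. Cd8b1 was at 2.35, 2.21, 2.07 and 1.89 CPM in liver and at 2.64, 1.12, 0.672 and 0.561 CPM in peritoneum. In peritoneal stroma, mouse 1 lay within the liver range for Cd8a and above it for Cd8b1, and the other 3 peritoneal libraries were below every liver library. The fold changes were 1.08 for Cd8a (standard error 0.46, adjusted p = 0.0989) and 0.66 for Cd8b1 (standard error 0.44, adjusted p = 0.282). With the mouse as a block Cd8a passed (1.28, adjusted p = 0.0191, edgeR), and it was higher in the liver in 4 of 4 mice.

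Tbx21 (T-bet, a transcription factor of T helper 1 cells, cytotoxic T cells and NK cells) was at 1.49, 2.35, 4.36 and 2.55 CPM in liver stroma and at 1.75, 1.34, 0.764 and 0.702 CPM in peritoneal stroma. The liver library of mouse 1 fell within the peritoneal range, and the fold change of 1.13 missed the threshold (standard error 0.40, adjusted p = 0.0544, edgeR). It passed with DESeq2 (adjusted p = 0.0242), with all 16 sorted libraries in one fit (0.0353), and without the liver or the peritoneal stroma of mouse 1 (0.0326 and 0.0322). It moved further from the threshold with the mouse as a block (adjusted p = 0.115), on the leukocyte scale (0.60, adjusted p = 0.199) and without the liver stroma of mouse 3 (0.78, adjusted p = 0.154), and over the 8 libraries left out in turn the adjusted p ran from 0.0322 to 0.154.

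Foxp3, which defines regulatory T cells, and Cd5, which tunes receptor signalling, did not pass the filter on low counts. Foxp3 had 10, 6, 15 and 2 counts in liver stroma and 2, 2, 6 and 7 in peritoneal stroma, while tumour cells had 1 to 13 and cultured cells 1 to 12. The stromal counts thus overlapped the background in cells without a host. Of its exon bases 21.7% are shared with neighbouring genes, among them Ccdc22 on the opposite strand, which was at 24.8 to 48.1 CPM in all 7 groups, and the strand setting of the counting was not given. Cd5 had 13, 11, 9 and 4 counts in liver and 5, 4, 7 and 3 in peritoneal stroma, and its ranges overlapped. The exact permutation test over the 70 groupings of the 8 libraries gave p = 0.286 for Foxp3 and p = 0.114 for Cd5 (two-sided, on log2(CPM + 0.5)), with a smallest possible p of 0.0286.

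**Figure D3:**
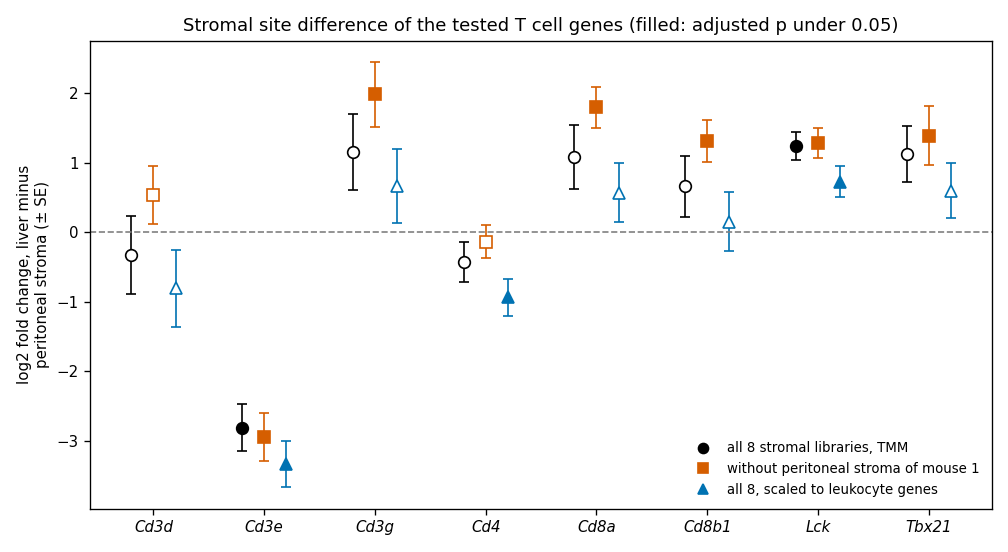
Log2 fold change (liver minus peritoneal stroma) with its standard error for the 8 T cell genes tested, with all 8 stromal libraries, without the peritoneal stroma of mouse 1, and with libraries scaled to leukocyte genes. Filled symbols have an adjusted p under 0.05. Cd3e lies between -3.34 and -2.81 and Lck between 0.73 and 1.29 in all 3 settings, whereas Cd3d changes side and the other genes change their call.

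The peritoneal stroma of mouse 1 decided several of these calls. Without it, 6 of 8 T cell genes were called, against 4872 of all 14951 genes tested (2092 higher in liver and 2780 in peritoneum). Cd3e was higher in peritoneum and 5 T cell genes were higher in liver. These were Lck, Cd8a (1.80, adjusted p = 0.00179), Cd3g (1.99, 0.0111), Cd8b1 (1.31, 0.0101) and Tbx21 (1.39, 0.0322), each an edgeR log2 fold change and adjusted p. Cd3d turned to 0.54 (adjusted p = 0.362). That library differed from the other peritoneal stromal libraries in transcripts of several cell types. Plasmacytoid dendritic cell genes were at 83.4 CPM there (6 genes, against 38.8 to 52.1) and NK genes at 41.2 CPM (against 19.3 to 32.6). B cell genes were at 128 CPM (against 102 to 106) and endothelial genes at 486 CPM (against 328 to 342). The B cell sum includes Ebf1, which mesenchymal cells also use, so it does not measure B cell transcripts alone. Type 1 and type 2 dendritic cell genes were highest there too. Macrophage genes were highest by a small margin (3471 CPM against 2034 to 3414), and fibroblast genes lowest (39646 CPM against 40593 to 57275). The part of these cells in the T cell gene levels was not tested. Sums of T cell receptor signalling (343 CPM), T cell surface (70.4 CPM) and T cell factor genes (310 CPM) did not stand apart in that library. They lay within the range of the other peritoneal stromal libraries, as did innate lymphoid cell genes (79.8 CPM). This library shared its sequencing lane with the liver stroma of the same mouse, as did both libraries of mice 3 and 4. Those of mouse 2 were run in different lanes.

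The order of the genes per kilobase in liver stroma was Cd4, Lck (2.08 ± 0.377 RPKM), Cd8a (1.64 ± 0.448), Cd8b1 (1.502 ± 0.141), Cd3e, Tbx21 (1.08 ± 0.485), Cd3g, Cd3d, Cd5 and Foxp3. In peritoneal stroma Cd3e came first, before Cd4, Cd8b1 (0.882 ± 0.678), Lck (0.808 ± 0.171), Cd8a (0.722 ± 0.586), Cd3d, Tbx21 (0.458 ± 0.201), Cd3g, Cd5 and Foxp3. In liver the neighbours Lck and Cd8a, Cd8a and Cd8b1, Cd3e and Tbx21, Tbx21 and Cd3g, and Cd3g and Cd3d differed by less than the larger SD of the pair. In the peritoneum this held for each pair of neighbours from Cd8b1 down to Cd5. The sum of all 10 genes was 26.8 to 34.9 CPM in liver and 24.4 to 46.1 CPM in peritoneal stroma.

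Tumour cells were examined to see how much of each gene followed the GFP-positive fraction. In the liver, 7 of the 8 genes tested were higher in stroma than in tumour cells, against 77.8% of all 14620 genes called and 39.4% called higher in stroma. In the peritoneum 6 of 6 were higher in stroma, against 76.6% called and 37.1% higher in stroma. The log2 fold changes ran from 3.01 for Cd3d to 8.03 for Lck in liver and from 2.96 for Cd3e to 6.83 for Tbx21 in the peritoneum. Apart from Cd3e, the genes passed the filter through the stromal libraries, so these counts describe where the transcripts were.

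With counts pooled over 4 mice, Cd4 in tumour cells was at 0.899% of its stromal level in liver and 1.25% in the peritoneum. Lck was at 0.344% and 3.87%, Cd8a at 0.905% and 2.44%, Cd8b1 at 2.55% and 3.90%, and Tbx21 at 1.05% and 0.618%. Cd3g had 1 count in the 4 liver tumour cell libraries against 81 in stroma, a stroma to tumour ratio of 92.7 with a 95% counting interval of 16.2 to 3706. By the same measure Ptprc was at 0.225% and 0.718%, and the macrophage receptor gene Csf1r at 0.394% and 1.22%. Several of the peritoneal percents rested on the tumour cells of mouse 1, which gave 391 of 519 Ptprc counts, 20 of 27 Cd4 counts and 7 of 13 Lck counts. Without that library Ptprc was at 0.226%, Csf1r at 0.391%, Cd4 at 0.416%, Cd8a at 1.95% and Lck at 2.28%. Other peritoneal percents rose without it, to 4.27% for Cd8b1, 0.790% for Tbx21, 3.34% for Cd3g, 17.5% for Cd3d, 84.5% for Cd5 and 112% for Foxp3. Cd3d, with 12 and 16 tumour cell counts, was at 12.9% and 14.6%, and had 1 to 6 counts in each of the cultured cell libraries. Cd5, with 11 and 17 tumour cell counts, was at 26.0% and 70.3%. Lck averaged 0.0911, 0.248 and 0.157 CPM in empty-vector, RasLOW and RasHIGH cells, against 0.0211 and 0.0916 CPM in liver and peritoneal tumour cells. For Cd8a these means were 0.0677, 0.0265 and 0.0447 against 0.0502 and 0.0571 CPM. For Cd8b1 they were 0.0138, 0.0265 and 0.0441 against 0.0547 and 0.0416 CPM. The percents of these genes thus lay near a background without host cells, whereas Cd3g, Cd4 and Tbx21 had 0 counts in cultured cells.

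Cd3e was the exception among the CD3 chains. Its levels in tumour cells of mice 1 to 4 were 0.989, 0.957, 0.898 and 1.996 CPM in liver and 3.12, 1.33, 0.722 and 0.755 CPM in the peritoneum. Every one of these libraries had 20 to 98 counts, whereas the 9 cultured cell libraries had 0 to 3. In the liver the tumour cell level was 72.2% of the stromal one, and the stroma was not called higher (0.52, standard error 0.33, adjusted p = 0.170, edgeR), although without the tumour cells of mouse 4 it was (0.85, adjusted p = 0.0318). In the peritoneum it was 13.2% of the stromal level, or 8.69% without the tumour cells of mouse 1, with stroma higher by 2.96 (standard error 0.54, adjusted p = 0.000975). Cd3g was at 0 or 1 count in the same tumour cell libraries.

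**Figure D4:**
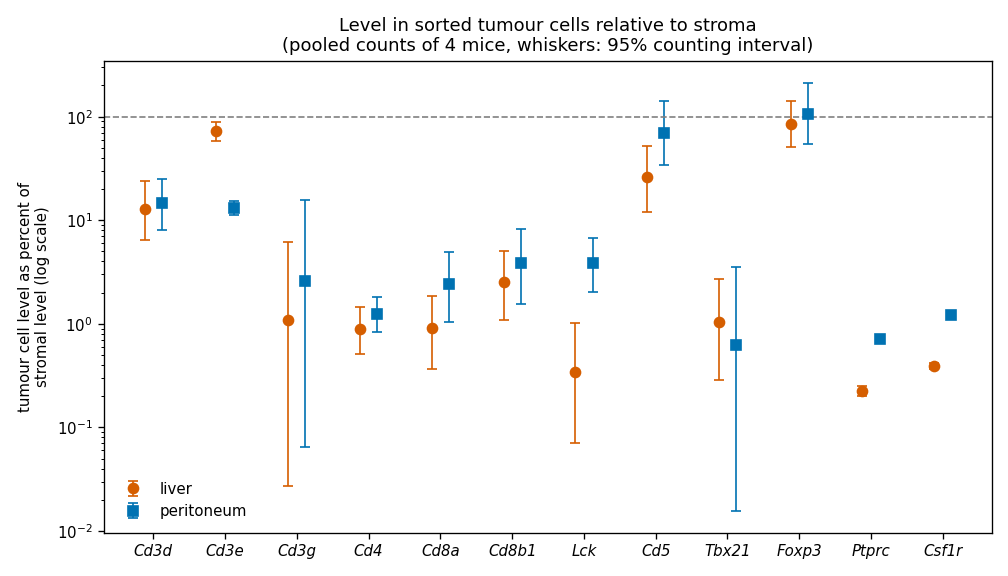
Level in sorted tumour cells as a percent of the level in stroma of the same site, from counts pooled over 4 mice, on a log axis, for the 10 T cell genes, Ptprc and Csf1r (x axis). Whiskers are 95% counting intervals and the dashed line marks equal levels. Cd3e in liver (72.2%), Cd5 in the peritoneum (70.3%) and Foxp3 at both sites lie near the line, while Lck, Cd4, Cd8a and Tbx21 lie between 0.344% and 3.87%.

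Between liver and peritoneal tumour cells 1 T cell gene, Cd3e, passed the filter and 0 were called by edgeR, against 3.2% of all 13074 genes tested. Its unadjusted p was not under 0.05, and DESeq2, which gave an adjusted p for 5 T cell genes, called 0 of them. With all 16 sorted libraries in one edgeR fit, Lck had an unadjusted p of 0.0378 there (-1.91, adjusted p = 0.212). The change of Cd3e was -0.25 (standard error 0.50, adjusted p = 0.816). Without the peritoneal tumour cells of mouse 1, the library with the high Ptprc, it was 0.42 (adjusted p = 0.533). The site difference itself differed between stroma and tumour cells for Cd3e (-2.49, standard error 0.65, adjusted p = 0.0178) and Lck (3.23, standard error 0.92, adjusted p = 0.0293) of 8 genes tested, by the interaction term of an edgeR fit over 16 libraries and 15331 genes, run after the values had been seen. For Lck 7 of 8 tumour cell libraries were at 3 counts or fewer, and without the peritoneal tumour cells of mouse 1 its interaction was not called (2.38, adjusted p = 0.112, edgeR), while that of Cd3e was (-3.24, adjusted p = 0.000754).

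Genes of the receptor's signalling path were then read in the stroma. Of 17 in the list, 14 were tested and 9 were higher in liver, with 0 higher in peritoneum, against 14.9% and 18.5% of all genes, and the median log2 fold change was 0.85 against 0.02 over all genes. Zap70, the kinase recruited to the phosphorylated chains, was at 2.31 to 3.58 CPM in liver and 0.733 to 0.962 CPM in peritoneal stroma (1.64, adjusted p = 0.000481). Skap1 (1.38), which links the receptor to adhesion, and the zeta chain Cd247 (1.17, adjusted p = 0.0179) were also higher in liver, as was Prkcq (1.03). Of Cd247, 59.8% of the exon bases are shared with other genes, so its value is uncertain. Lat, the adaptor that Zap70 phosphorylates, was at 1.25 ± 0.280 CPM in liver and 1.24 ± 0.455 CPM in peritoneum (SD, n = 4) and was not called (-0.12, adjusted p = 0.807).

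Other T cell surface genes showed a like direction in part. Of 12 tested, 5 were higher in liver and 0 in peritoneum, where 14.9% of all genes were called higher in liver and 33.4% in either direction. Ctla4, an inhibitory receptor, was at 2.60 to 4.74 CPM against 0.737 to 1.34 CPM (1.59, adjusted p = 0.00179), followed by Icos (1.14), Tnfrsf9 (1.01), Pdcd1 (0.98) and Il7r (0.88). Of 12 T cell transcription factors 4 were higher in liver (all genes 14.9%, or 33.4% in either direction), namely Eomes (1.23), Runx3 (0.94), Ikzf2 (0.49) and Zbtb7b (0.35), and Eomes and Ikzf2 were not called with the mouse as a block (adjusted p = 0.0530 and 0.0543). Without the peritoneal stroma of mouse 1, Pdcd1 and Ikzf2 were not called, whereas Cd27, Cd28 and Satb1 were called higher in liver. Bcl11b, Tcf7 and Lef1, needed for T cell identity, were not called (-0.86, 0.40 and 0.16). The 12 factors summed to 145 to 257 CPM in cultured cells, which hold no T cells, and to 183 to 234 CPM in tumour cells. In stroma they summed to 498 to 688 CPM in liver and 262 to 424 CPM in peritoneum. Transcripts of this list are thus not exclusive to T cells. Of 7 cytokine genes 2 were tested, and Fasl, a death ligand of cytotoxic cells, was higher in liver (1.74, adjusted p = 0.00144). None of 14 names of T cell receptor chains that were looked up was in the table.

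The levels of lineages that share genes with T cells moved too. Of 10 NK genes tested, 8 were higher in liver and 0 in peritoneum (all genes 14.9% and 18.5%), among them the granzymes Gzma (2.74) and Gzmb (2.22), Klrd1 (1.99), Prf1 (1.77) and Il2rb (1.65). Ncr1, a receptor that defines NK cells, was at 2.92 to 8.88 CPM in liver and 1.01 to 3.55 CPM in peritoneum (1.40, adjusted p = 0.0263), and without the peritoneal stroma of mouse 1 it was not among the genes called. The sum of the 12 NK genes was 80.0 to 131 CPM in liver and 19.3 to 41.2 CPM in peritoneal stroma, with Klra8 and Klra4 at 0 counts. The part of NK cells in the levels of Lck, Tbx21, Zap70 and Cd247 was not tested.

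The lists that follow stand against 14.9% of all genes called higher in liver and 18.5% called higher in peritoneum. B cell genes were higher in liver in 8 of 10 cases, including Ms4a1 (2.88), Blk (2.18), Cd79a (1.97) and Pax5 (1.96). Ebf1, which mesenchymal cells also use, was higher in peritoneum (-3.09). All 5 genes of type 1 dendritic cells, some of which carry Cd8a, were higher in liver, with Clec9a at 1.29 and Xcr1 at 0.92. Of 6 plasmacytoid dendritic cell genes, 3 were higher in liver, namely Ly6d (2.48), Siglech (1.30) and Pacsin1 (0.97). Without the peritoneal stroma of mouse 1 all 6 were called higher in liver, and with the mouse as a block 5 were. Csf1r was the 1 of 7 macrophage genes called (0.41, adjusted p = 0.0270), a share near that of all genes. Among 3 genes of innate lymphoid cells, Il1rl1 (-2.59) and Rora (-0.83) were higher in peritoneum, and all 5 fibroblast genes were too, with Col3a1 at -4.15. The list of innate lymphoid cell genes summed to 1.62 to 2.85 CPM in cultured BMEL cells with an empty vector, so it is not exclusive to those cells. Whether any of the cell types named here contributed to a T cell gene was not tested.

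**Figure D5:**
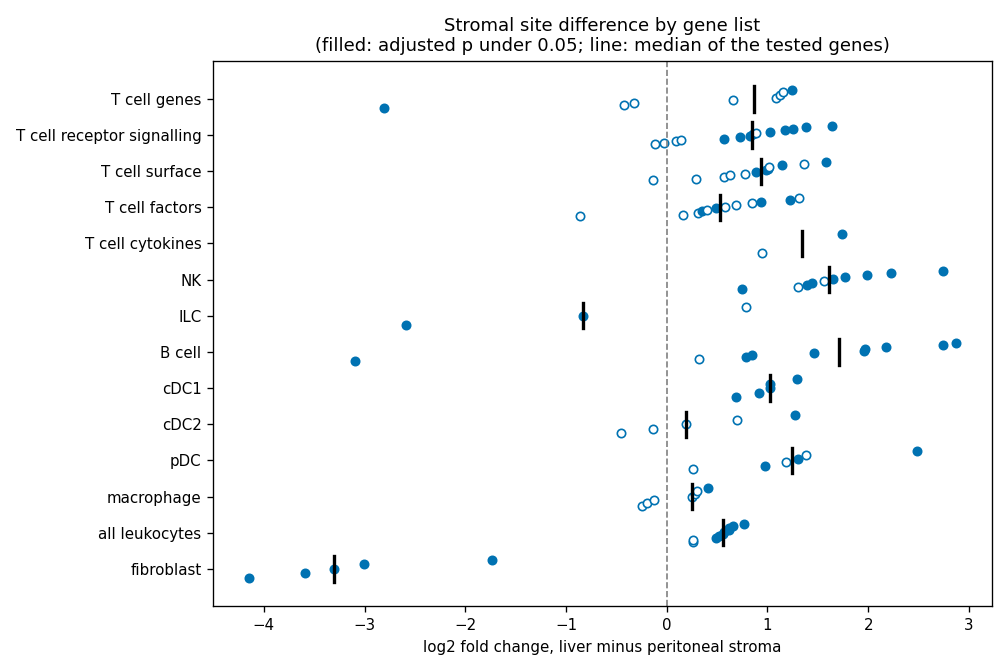
Log2 fold change (liver minus peritoneal stroma, x axis) of each tested gene, by gene list (y axis). Filled points have an adjusted p under 0.05 and the black line is the median of the tested genes of a list. The T cell genes spread from -2.81 (Cd3e) to 1.25 (Lck) around a median of 0.87, the NK genes all lie above 0, and the fibroblast genes all lie below it.

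On the scale of 10 leukocyte genes most lists had fewer genes called higher in liver. The calls of the signalling list fell to 3 higher in liver (among them Zap70 and Skap1) and 1 in peritoneum (Fyn), those of the surface list to Ctla4 alone, and those of the factors to 0 (4 by edgeR on the TMM scale). Of the NK genes 6 of 10 were still called higher in liver, and of the type 1 dendritic cell genes 1 of 5. Calls higher in peritoneum rose from 0 to 3 of 7 macrophage genes and from 0 to 2 of 5 type 2 dendritic cell genes. Among the 8 T cell genes tested they rose from 1 (Cd3e) to 2 (Cd3e and Cd4). All genes tested shifted by -0.53 on that scale, where 375 were called higher in liver and 9301 higher in peritoneum, against 2203 and 2723 on the TMM scale.

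The genes whose pattern over the 8 stromal libraries was most like the sum of the 3 CD3 chains were Shox2, Fam20a, Gna14, Ackr3 and Emx2. Their root mean square differences of centred log2(CPM + 0.5) were 0.227 to 0.323, among 13451 genes with a mean of at least 1 CPM. All 5 had higher means in the peritoneal stroma, for example Shox2 with 0.316 CPM in liver and 3.30 CPM in peritoneum. None was on a T cell list, and the sum of the chains was mostly Cd3e. Taken singly, which was done after the values were seen, Cd3e was most like Shox2 (0.137), Lck most like Mboat2 (0.0889) and Cd3g most like Tinagl1 (0.0830).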

How the data were processed

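RNA from cultured BMEL, RasLOW and RasHIGH cells and from sorted tumour and stromal cells was sequenced after NuGEN Universal Plus mRNAseq library preparation on an Illumina HiSeq instrument. Reads were aligned to mm9 with TopHat2 according to the study's methods, while the submitters' processing notes list mm8, mm10 and Bowtie 0.12.2, and the counting tool, annotation and strand setting were not given in the sources used here. The authors deposited raw counts per gene, which were used without change. No unique molecular identifiers were described, so intervals cover counting error only.

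Groups were taken from the labels. CPM values were computed from the deposited counts with library totals, and RPKM with merged exon lengths of GENCODE on NCBIM37 (mm9). Comparisons used the edgeR 4.0.16 quasi-likelihood test in R 4.3.3 with TMM normalization, filterByExpr (minimum count 10), the 2 groups compared and Benjamini-Hochberg adjustment over all genes tested. A gene was called at an adjusted p under 0.05. The step was tested on simulated data, where DESeq2 called more genes falsely, so that edgeR was the main test and DESeq2 an alternative only. Alternatives were DESeq2 1.42.0, other factors, no filter, all 16 sorted libraries, the mouse as a block, each library left out, and the study's own threshold (log2 change beyond 1 in size, unadjusted p under 0.05). Same-numbered libraries came from the same mouse. The correlations of their deviations from the group means were -0.00315, 0.136, 0.122 and 0.285 for stroma and -0.216, 0.0301, -0.0299 and -0.0307 for tumour cells of mice 1 to 4. P-values rest on 4 mice.

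The genes named were the 10 T cell genes, 10 defining genes of the receptor path and other cell types, up to 5 called genes with the largest change from each list, and the 5 genes most like the CD3 sum. Some genes that this rule names are not reported here. The T cell genes and lists were chosen with earlier results of these data known. The interaction test, the likeness of single genes, the list counts under other settings, the values without the peritoneal tumour cells of mouse 1 in the interaction and the percents of stroma, and the leukocyte scaling of all genes were added after the data were seen, as were Tcf7, Lef1, Bcl11b, Fyn, Krt8, Cd27, Cd28, Satb1, Ikzf3, Ccr9, Cox6a2, Fcgr1, Ccdc22, Klra8 and Klra4 among the genes named. Promoter windows came from RefSeq (GRCm38.p6), with no coordinate carried between builds. No 2 libraries held identical counts.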

Additional observations from a re-analysis of the deposited data

Results flagged for a closer look

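Of 40 groups of 4 libraries, 9 held 1 library set apart from the other 3 by the gap relative to the group's range. The cut was Dixon's 95% critical value, which about 1 in 20 groups of normally distributed values would pass. Low counts do not follow that distribution, so 9 of 40 cannot be read against 1 in 20. In peritoneal stroma, mouse 1 stood high for Cd3d (1.79 CPM) and Cd8a (4.98 CPM), mouse 4 stood high for Cd3e (18.2 CPM), and mouse 3 stood low for Lck (1.62 CPM). In liver stroma, mouse 3 stood high for Cd3e (2.35 CPM). In liver tumour cells, mouse 4 stood high for Cd3e (1.996 CPM). The other 3 rested on 1 count each, for Cd3g in liver tumour cells of mouse 3 (0.0281 CPM), Cd3g in peritoneal tumour cells of mouse 4 (0.0377 CPM) and Tbx21 in peritoneal tumour cells of mouse 3 (0.0195 CPM). In these groups every other library was at 0 counts, a pattern that the rule always sets apart.

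The difference between liver and peritoneum differed between stroma and tumour cells for 2 genes by the interaction term. The interaction was -2.49 for Cd3e and 3.23 for Lck on the log2 scale (edgeR, adjusted p = 0.0178 and 0.0293). For Lck 7 of 8 tumour cell libraries held 3 counts or fewer, too few to compare levels there, and its interaction was not called without the peritoneal tumour cells of mouse 1 (2.38, adjusted p = 0.112).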

How the results depend on the processing

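Of the counts of calls, 98 recomputed values stayed within 1.5 times the value reported and 16 did not. Of the values for single genes, 294 kept their direction and their side of the threshold, 11 newly passed it, 2 reversed and 0 fell below it. T cell genes called between the stromal sites (2 of 8 reported) were 4 of 10 with DESeq2, where 5667 of all 19836 genes were called. They were 4 of 8 at the study's threshold (14.3% of all genes), and 2 to 6 with a library left out. The highest count was without the peritoneal stroma of mouse 1 (4872 of all 14951 genes), where Cd3d reversed to 0.54 (-0.58 to 0.54 over the libraries left out). Over all genes, the study's threshold gave 2107 calls in place of 4926 between the stromal sites, and 6437 in place of 11376 and 6377 in place of 11168 between stroma and tumour cells in liver and peritoneum. Leukocyte scaling, added after the data were seen, gave 9676 between the stromal sites. Between tumour cells of the 2 sites, 419 calls became 1239 with DESeq2, 671 with all 16 libraries, and 41 (without mouse 2 of the liver) to 884 (without mouse 1 of the peritoneum) with a library left out. Counts without mouse 3 or 4 of the liver were 208 and 80, and without mouse 3 or 4 of the peritoneum 231 and 277. Cd3e reversed there to 0.42 without mouse 1 of the peritoneum (-0.60 to 0.42 over the libraries left out). The causes were not tested.

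With the mouse as a block (pairing by animal), 102 genes were called between tumour cells in place of 419, and Cd8a was called between the stromal sites (1.28). Among the listed genes Eomes and Ikzf2 lost their call in stroma and Ikzf3, Ccr9, Cox6a2 and Fcgr1 gained one. The block changed no other call of a T cell gene or listed gene in stroma. At 3 counts or fewer, as for most T cell genes in tumour cells, levels could not be compared at this depth.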

Other observations

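The peritoneal tumour cell library of mouse 1, which had the highest Cd3e of its group (3.12 CPM), differed from the 3 other libraries of its group in transcripts of several host cell types. Macrophage genes summed to 153 CPM against 22.0 to 29.1 CPM, B cell genes to 8.03 CPM against 0.868 to 1.17 CPM, and fibroblast genes to 1194 CPM against 170.0 to 257 CPM. The B cell sum includes Ebf1, which mesenchymal cells also use. Endothelial genes, at 146 CPM against 54.7 to 247 CPM, and hepatocyte genes, at 8.92 CPM against 0.976 to 10.8 CPM, lay within the range of the others. The 10 T cell genes summed to 4.30 CPM there and to 0.981 to 2.23 CPM in the other 3. Lck had 7 counts and Cd4 20 counts in that library, the highest of all 8 tumour cell libraries for both genes. Cd4 had 0 counts in every cultured cell library. Lck reached 15 counts (0.551 CPM) in a cultured RasLOW library, so its 0.223 CPM here lay within the background of cells without a host.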
